A study of Gossypium barbadense with 4 samples.

Results

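Histones and the enzymes that modify them were followed through 8 probe sets of the 24029 on the cotton array that are not controls. A probe set was taken when its GenBank accession, as given in the lists of called genes that accompany the study, carried a sequence-similarity description holding the word histone. The 8 probe sets comprise 1 linker histone, 3 core histones, 2 histone methyltransferases, 1 histone deacetylase and 1 subunit of a deacetylase complex. The study describes 12 such accessions. Those of a histone H1 (AI729369), a histone H2B (CA992670), a second histone H3 (DW510271) and the lysine methyltransferase ATX4 (AI729487) had no probe set matched to them and were not analysed here. The study's list of genes called in ovules was held only in part, so the array may still carry probe sets for them. Because every description comes from a list of genes that the study had called on these same arrays, 2 of them in anthers and 6 in ovules, counts of changed probe sets among the 8 are not independent evidence.

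Signals were measured in anthers and ovules of *Gossypium barbadense* collected at 0 days post-anthesis (DPA), the day of flowering, from the semigametic line 57-4 and from Pima S-1, the obsolete non-semigametic cultivar in which 57-4 arose as a natural doubled haploid mutant. In semigamy the sperm enters the egg but the 2 nuclei do not fuse. Each of the 4 groups is 1 array, hybridized with RNA pooled from field replicates of 10 flowers, and each genotype is a single line. No replicate error and no test are therefore available, and each difference is given as a ratio of signals beside the share of all probe sets that differed as much. Signals are on the linear intensity scale of the MAS5 software. Values under 50 were set to 50 for ratios, so that a fold is a lower bound where 1 signal was under 50 and is not given where both were. Differences of 2-fold or more were counted. Anthers and ovules are mixtures of cells, so fewer cells of a type and less RNA per cell cannot be told apart. Levels of different probe sets are not compared.

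DNA in the nucleus is wound around octamers of the core histones H2A, H2B, H3 and H4, and the linker histone H1 binds the DNA where it enters and leaves the octamer. Core histone transcripts are made largely in S phase, when DNA is replicated. In *Arabidopsis thaliana*, H1 is depleted from the vegetative nucleus of pollen and from the megaspore mother cell, and chromatin is rebuilt in both gametophytes. Methyltransferases mark histone tails on lysine or arginine, and deacetylases remove acetyl groups.

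The arrays had trimmed mean signals of 250.0 each, and between 12411 and 14673 probe sets reached 50. On all 3 cotton control transcripts, actin, ubq11 and ss1, the ratio of the 3' to the 5' signal was higher on the 57-4 array of a tissue (11.7 to 21.1) than on the Pima S-1 array (4.18 to 11.8). The 9 spiked hybridization controls, of bacterial and phage origin, were also brighter in 57-4, by a median log2 ratio of 0.47 (anthers) and 0.40 (ovules). The part of these differences in the ratios below was not tested, and where scaling the arrays on the hybridization controls turns a direction this is said beside it. The tissue labels could be checked on the ovule side only. Of 19 measured probe sets described with the words ovule, fibre, seed or embryo, 12 were brighter in ovules in Pima S-1 and 12 in 57-4. Over all measured probe sets it was 5606 of 14809 and 6894 of 16289. The median log2 ratio of the 19, anthers to ovules, was -0.80 in Pima S-1 and -0.15 in 57-4, so the check is weak. No description held pollen, anther or tapetum. For the 6 probe sets taken from the ovule list, the list's headings of the 2 ovule signals are the other way round from the deposited labels, while the sign of its ratio follows them in all 6. The deposited labels were used.

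**Figure D1:**
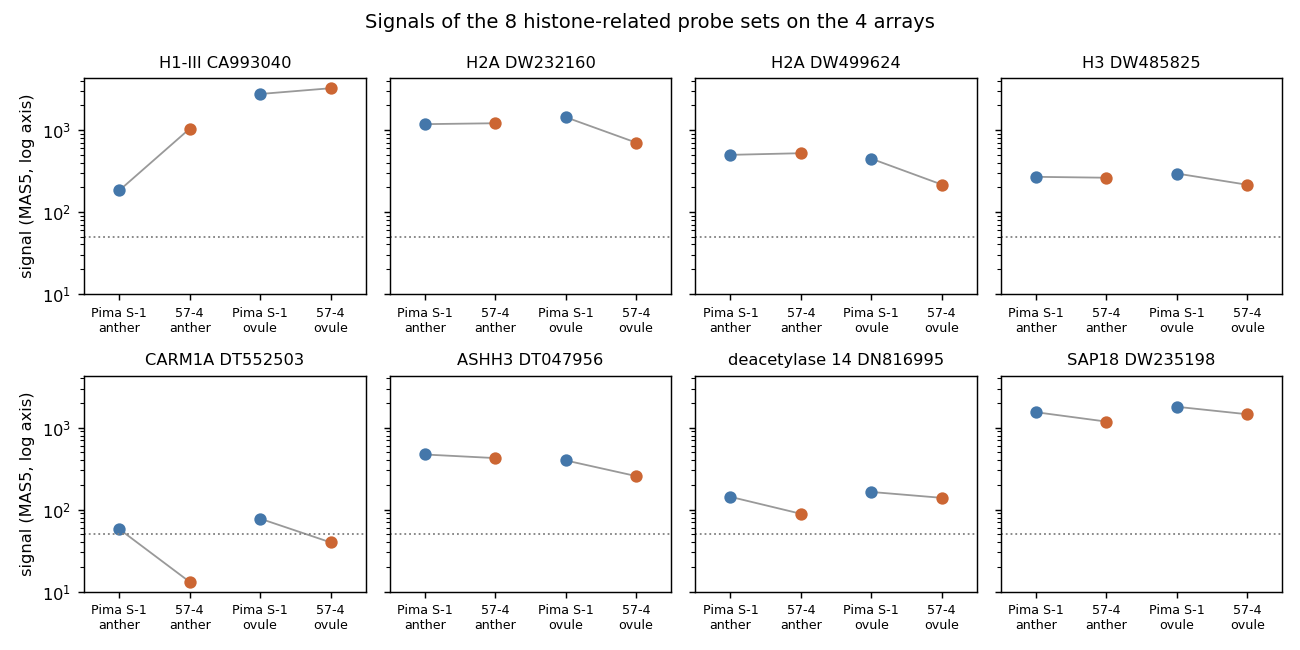
Deposited signal of each of the 8 probe sets (vertical axis, logarithmic, MAS5 units) on the 4 arrays, with Pima S-1 in blue and 57-4 in orange, the arrays of a tissue joined by a line and the floor of 50 dotted. Each point is 1 array; H1-III ran from 183 to 3226, and CARM1A was under 50 on both 57-4 arrays. Heights are to be read within a panel, not between panels.

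The linker histone probe set (CA993040) showed the widest range of the 8. Its signal was 183 in Pima S-1 anthers, 1036 in 57-4 anthers, 2745 in Pima S-1 ovules and 3226 in 57-4 ovules. It was thus low on 1 array, the Pima S-1 anthers, and high on both ovule arrays. In anthers the 57-4 signal was 5.67-fold that of Pima S-1, a log2 ratio of 2.50, which placed it among the 5 highest of 15900 measured probe sets. Over the scalings tried, this ratio lay between 2.0 and 2.66. In ovules the ratio was 0.23, and it became -0.25 when the arrays were scaled on the hybridization controls. The arrays alone therefore do not settle its direction there. By quantitative RT-PCR, the study reports significantly more transcript of the linker histone of this name in the semigametic line, in both tissues. The study describes replicate reactions at several dilutions of each RNA sample, and its arrays did not call this gene in ovules. In anthers the increase it reports by that method is smaller than the increase it reports from its arrays. On the arrays the anther ratio exceeded the ovule ratio by 2.27, and 20 of 13428 probe sets measured in both tissues, this one included, showed as large an excess. The probe set entered through the study's list of genes called in anthers. Its rank in anthers and that of the excess therefore follow in part from how it was chosen. The gene behind this probe set is described only by a partial match to histone H1-III of the midge *Glyptotendipes barbipes*. The match is to an animal protein, and the UniGene title names no product. The name was therefore kept as given, and no other probe set of its UniGene cluster is on the array.

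Between tissues, the same probe set was 15.0-fold lower in anthers than in ovules of Pima S-1, a log2 ratio of -3.91 that 68 of 14809 measured probe sets reached. In 57-4 it was 3.12-fold lower (log2 ratio -1.64), as 489 of 16289 probe sets were or more so. The direction was the same under each scaling, with ranges of -4.10 to -3.71 in Pima S-1 and -1.76 to -1.46 in 57-4. Anthers were thus the tissue with the lower H1-III signal in both genotypes, and the gap was narrower in 57-4. The narrower gap comes from the same arrays and restates the excess of the anther genotype ratio given above.

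**Figure D2:**
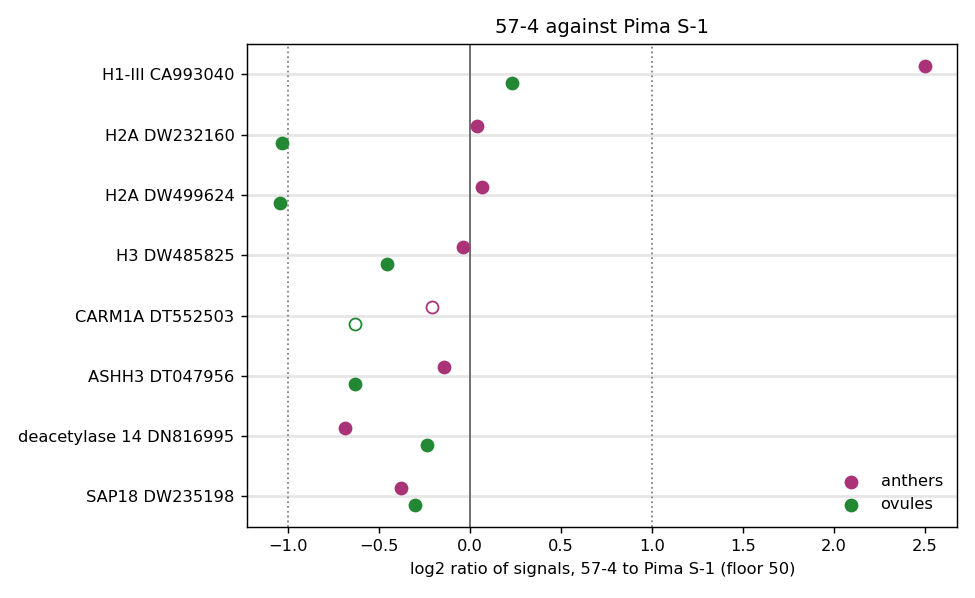
Log2 ratio of signals, 57-4 over Pima S-1 (horizontal axis, signals floored at 50) for each probe set, in anthers (purple) and ovules (green), with dotted lines at 2-fold. Open circles are lower bounds. H1-III at 2.50 in anthers and both H2A probe sets, at -1.03 and -1.05 in ovules, lie past the lines.

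The 3 core histone probe sets were each lowest on the 57-4 ovule array. All 3 entered through the ovule list, where they were listed as lower in 57-4. Their low 57-4 ovule signals and the shares given for them therefore follow in part from how they were chosen. In ovules 2 of them, both H2A, were at least 2-fold lower in 57-4, as were 4.14% of all measured probe sets. The H2A probe set DW232160 read 1430.3 on the Pima S-1 ovule array and 700.1 on the 57-4 ovule array, against 1176 in Pima S-1 anthers and 1206 in 57-4 anthers. Its 57-4 ovule array was the low one, and the other 3 lay between 1176 and 1430.3. Between genotypes its log2 ratio was -1.03 in ovules and 0.04 in anthers, the latter -0.46 when scaled on the hybridization controls. The second H2A probe set (DW499624) gave 446 for Pima S-1 ovules and 216 for 57-4 ovules, with 496 in Pima S-1 anthers and 519.9 in 57-4 anthers. Here too the 57-4 ovules were low and the other arrays lay close together. Its ratios were -1.05 in ovules and 0.07 in anthers, the latter -0.43 with that scaling. In ovules 3.84% of 14707 measured probe sets had a ratio as low as the first and 3.71% as low as the second. Both probe sets carry the same description, an H2A of *G. hirsutum*, and both are of a type that can bind transcripts of more than 1 gene. They may report the same transcripts and are not independent measurements. Both ratios were just past 2-fold, and with quantile normalization both became -0.96, short of it.

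Histone H3 (DW485825) moved less. Its signals were 268 in Pima S-1 anthers, 261 in 57-4 anthers, 294 in Pima S-1 ovules and 214 in 57-4 ovules, again with the 57-4 ovules lowest. The log2 ratio was -0.46 in ovules, where 16.8% of probe sets were as low, and -0.04 in anthers, where it became 0.08 with quantile normalization. All 3 core histone probe sets were therefore within 1.05-fold between genotypes in anthers and between 1.37- and 2.07-fold lower in 57-4 ovules. The shared direction in ovules was set by their choice from the ovule list. Scaling on the hybridization controls lowered the anther ratios, down to -0.54.

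Between tissues the core histones of Pima S-1 were nearly level, with log2 ratios of anthers to ovules of -0.28 and 0.16 for the H2A probe sets and -0.13 for H3. The direction of the second H2A became -0.04 with ratios centred on their median, and that of H3 became 0.06 with scaling on the hybridization controls. In 57-4 all 3 were brighter in anthers, at 0.78, 1.27 and 0.28, and DW499624 was the only one past 2-fold. The median over all probe sets was 0.20 in Pima S-1 and 0.12 in 57-4. The tissue difference of the core histones thus ran opposite to that of H1-III in 57-4. These tissue ratios use the same 4 arrays as the genotype ratios, so they show the low 57-4 ovule signals a second way.

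**Figure D3:**
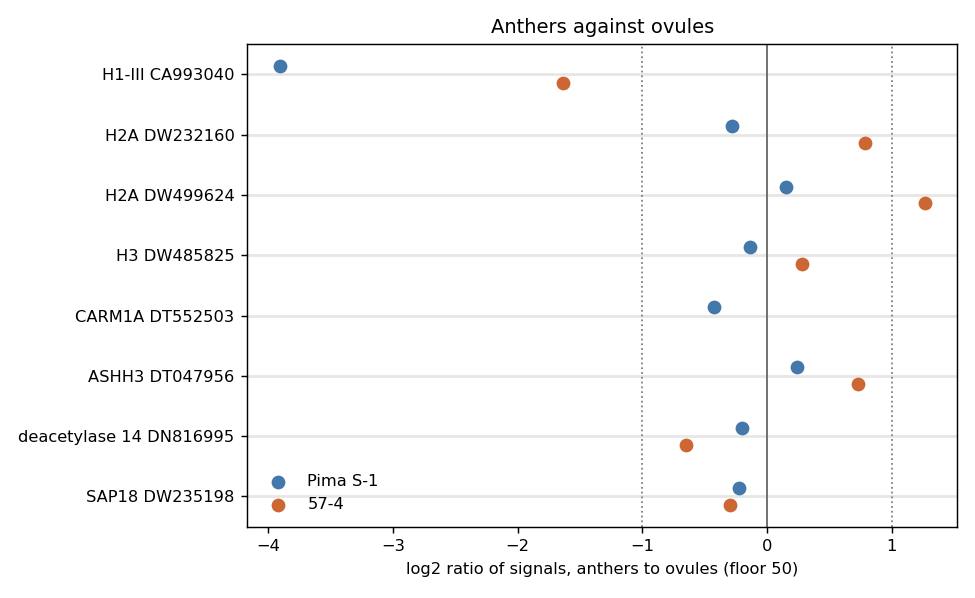
Log2 ratio of the anther signal to the ovule signal (horizontal axis, signals floored at 50) in Pima S-1 (blue) and 57-4 (orange), with dotted lines at 2-fold. H1-III lies at -3.91 and -1.64; the core histones shift to the right in 57-4, up to 1.27. CARM1A has no 57-4 point because both signals were under 50.

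The lysine methyltransferase ASHH3 (DT047956), named for a SET-domain protein of *A. thaliana*, had signals of 470.1 in Pima S-1 anthers, 425 in 57-4 anthers, 398 in Pima S-1 ovules and 256 in 57-4 ovules. The 57-4 ovules were again the low array, for a probe set that also entered through the ovule list as lower in 57-4. Between genotypes its log2 ratio was -0.15 in anthers and -0.63 in ovules, where 10.7% of probe sets were as low. Scaling on the hybridization controls brought the ovule ratio to -1.12, past 2-fold. A second probe set of its UniGene cluster, looked up after the values of the first were seen, did not show lower 57-4 ovules in the deposited scaling. Its ovule signals were 99.4 for 57-4 and 88.2 for Pima S-1 (ratio 0.17), and its anther signals 205 and 195 (0.07). Scaling on the hybridization controls moved the median ratio of all probe sets by -0.43 in ovules and -0.48 in anthers. Both shifts are larger than these 2 ratios, so their direction depends on the scaling. The second probe set was more than 2-fold brighter in anthers of both genotypes (1.14 in Pima S-1 and 1.04 in 57-4), while ASHH3 itself had 0.24 and 0.73.

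The arginine methyltransferase CARM1A (DT552503), whose *A. thaliana* counterpart methylates histone H3, was close to the floor. Its signals were 57.8 in Pima S-1 anthers and 77.5 in Pima S-1 ovules, and 13.1 and 39.8 in the 57-4 anthers and ovules. Both Pima S-1 arrays were thus above 50 and both 57-4 arrays below. As bounds, it was lower in 57-4 by at least 1.16-fold (anthers) and at least 1.55-fold (ovules). Without a floor the log2 ratio was -2.14 in anthers, a value that rests on a signal of 13.1, and -0.96 in ovules. A probe set of the same cluster, designed with the other orientation letter in its identifier, was under 50 on all arrays (2.7 to 40.9), so no fold is given.

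Histone deacetylase 14 (DN816995), whose *A. thaliana* counterpart also acts on proteins outside the nucleus, gave 143 in Pima S-1 anthers, 88.9 in 57-4 anthers, 164 in Pima S-1 ovules and 139 in 57-4 ovules. The 57-4 anthers were its low array. Unlike the core histones and ASHH3, it had a lower genotype ratio in anthers (-0.69) than in ovules (-0.24). In anthers 7.91% of probe sets were as low, and scaling on the hybridization controls brought the ratio to -1.19, past 2-fold. SAP18 (DW235198), a partner of the SIN3 deacetylase complex that is also found in a splicing complex, gave 1542 in Pima S-1 anthers, 1184 in 57-4 anthers, 1796 in Pima S-1 ovules and 1456 in 57-4 ovules. Its signals lay within 1.52-fold of each other, with genotype ratios of -0.38 (anthers) and -0.30 (ovules). Both were dimmer in anthers than in ovules, with log2 ratios of -0.20 in Pima S-1 and -0.65 in 57-4 for the deacetylase and of -0.22 and -0.30 for SAP18.

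Over the 8 probe sets, with CARM1A at its bounds, the 2-fold limit was passed upwards by 1 and downwards by 0 in 57-4 anthers, where 1.59% of 15900 probe sets were higher and 2.71% lower. In ovules 0 were higher and 2 lower, against 4.46% and 4.14% of 14707. The median log2 ratio was -0.09 in anthers and -0.54 in ovules, and the medians of all measured probe sets were 0.00 and 0.06. In ovules 7 of 8 had a ratio below 0, as did 6503 of 14707 probe sets, and the linker histone was the exception, which also fell below 0 with scaling on the hybridization controls. The 4 enzymes and partners had ratios below 0 in both tissues under each scaling. In anthers 7911 of 15900 probe sets were below 0 in the deposited scaling. For the 3 measured above 50 on every array, these lay in the deposited scaling between -0.69 and -0.15 (anthers) and between -0.63 and -0.24 (ovules), short of 2-fold, while for CARM1A only bounds are given. The 6 members taken from the ovule list were listed there as lower in 57-4, so their direction in ovules follows from how they were chosen. CARM1A and H1-III came from the anther list, so their anther ratios are likewise not independent of the choice. Between tissues, 0 members were higher and 1 lower in Pima S-1 anthers (12.7% and 8.60% of 14809 probe sets), and 1 higher and 1 lower among 7 measured in 57-4 (7.96% and 7.26% of 16289).

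**Figure D4:**
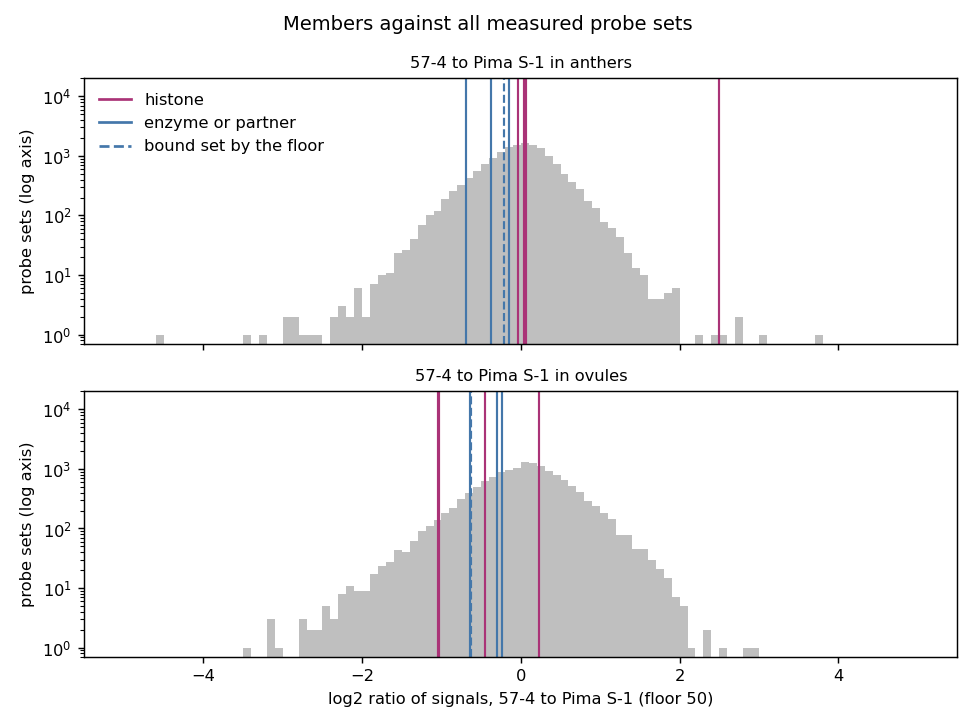
Log2 ratios, 57-4 over Pima S-1, of all measured probe sets (grey bars, number per 0.1 on a logarithmic axis) in anthers (top) and ovules (bottom), with the 4 histone probe sets (purple lines) and the 4 enzymes and partners (blue lines). H1-III at 2.50 in anthers stands in the thin right tail. CARM1A is dashed because its place is a bound set by the floor, and the other 6 members lie between -1.05 and 0.07.

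A wider list of 11 described probe sets for chromatin assembly, DNA replication and the cell cycle, none of them members, was set beside these. In ovules 8 of 9 measured had a ratio below 0, with a median of -0.62, against 6503 of 14707 of all measured probe sets. In anthers it was 10 of 11, with a median of -0.52, against 7911 of 15900. Past the 2-fold limit were 1 higher and 2 lower in 57-4 ovules (4.46% and 4.14% of all measured probe sets), and 0 higher and 1 lower in 57-4 anthers (1.59% and 2.71%). MCM3 (DW238515), a subunit of the replicative helicase, had ratios of -1.10 in ovules and -0.87 in anthers, and cyclin D3-1 (DN804524), which acts at entry into S phase, had -1.30 and -0.56. The small chain of ribonucleoside-diphosphate reductase, which makes deoxyribonucleotides, had -0.88 and -1.0 (DR459454). Its second probe set (DW512150) had -1.37 in anthers, and in ovules its 57-4 signal, 42.6, was under the floor. A probe set whose UniGene title names a putative histone acetyltransferase (DT554219), left out of the members because its description is unknown, gave -0.65 in ovules and -0.26 in anthers. Protein arginine N-methyltransferase 6 (DT466218), of the same enzyme family as CARM1A, went the other way in ovules, with 286 in 57-4 and 78.1 in Pima S-1 (1.87), and was level in anthers (-0.02). This list too was drawn from genes the study had called. Most of the genes called in each tissue were reported as down-regulated in the semigametic line. The shared direction of the list therefore follows in part from how it was chosen. All measured probe sets were not chosen in this way, so the counts against them cannot separate a shared change from the choice. A link to DNA replication was not tested.

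Likeness of pattern was measured as the distance between log2 signals on the 4 arrays, each probe set centred on its mean, over 811 described probe sets that reached 200 on an array. The nearest to H1-III were an induced stolen tip protein TUB8 (DT051826, distance 0.44), a hypothetical protein (DT047424, 0.52) and an auxin-regulated protein (DW514926, 0.52), and 0 probe sets were within 0.25. TUB8 had 68.4 in Pima S-1 anthers, 273 in 57-4 anthers, 834 in Pima S-1 ovules and 818 in 57-4 ovules. For DW232160 the nearest were an RNA-binding region RNP-1 protein (DW224363, 0.14), a poly(A)-binding protein (DW506642, 0.18) and NADH-ubiquinone oxidoreductase chain 1 (DW504777, 0.19). For DW499624 they were GRAS4 (DR456375, 0.04), protein kinase 5 (DW232721, 0.21) and fiber protein Fb22 (AI055574, 0.25). Histone H3 had 54 probe sets within 0.25, led by an EIN3-like protein (DR460629, 0.03), cytochrome b5 (DW228504, 0.05) and DRT111 (DT549798, 0.07). The 2 H2A probe sets were 0.46 apart and H3 lay 0.45 and 0.77 from them, against 3.40 to 3.99 between H1-III and the core histones. The core histones entered through the ovule list and H1-III through the anther list, so these distances follow in part from that choice. The 811 probe sets were likewise taken from the study's lists of called genes.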

How the data were processed

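RNA was pooled from 3 field replicates for each tissue and genotype and hybridized to Affymetrix Cotton Genome arrays. The deposited values are intensity signals that the authors computed with MAS5 (version not given in the sources used here) on a linear scale, each array scaled to a common mean. Of 24132 probe sets in the table, 103 are controls and were not counted. Probe sets were tied to descriptions through the accessions in the study's supplementary lists, with version suffixes dropped. Matched exactly as written, 7 of the 8 members are found. All 8 are named. The ovule list was held in part. The members, the word lists and the rule for nearest patterns were chosen with earlier results of these data known.

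Signals under 50 were set to 50 and log2 ratios taken with Python 3.11.15, numpy 2.4.6 and pandas 2.3.3. A probe set counted as measured when 1 of the 2 signals was at least 50, and was counted at a log2 ratio of at least 1 or at most -1. The number of arrays limits the precision. With 1 array per group no test was run. The counting was tested on simulated data, with changes well past 2-fold planted on bright probe sets. That test does not cover ratios just past the limit or signals near the floor. Alternatives were no floor, a floor of 100, median centring, quantile normalization, scaling on the hybridization controls, a log2 threshold of 1.5, single-transcript probe sets, exact accessions and exchanged ovule columns. Probe and transcript sequences were not used here.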

Additional observations from a re-analysis of the deposited data

Results flagged for a closer look

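The genotype ratios of the 2 histone H2A probe sets lay on opposite sides of 0 in the 2 tissues. For DW499624 the log2 ratio, 57-4 over Pima S-1, was 0.07 in anthers and -1.05 in ovules, and for DW232160 it was 0.04 and -1.03. The tissue ratios of 2 core histones likewise lay on opposite sides of 0 in the 2 genotypes. For DW232160 the log2 ratio of anthers to ovules was -0.28 in Pima S-1 and 0.78 in 57-4, and for histone H3 (DW485825) it was -0.13 and 0.28. With 1 array per group these differences were not tested. The anther ratios of the H2A probe sets are close to 0 and became -0.43 and -0.46 with scaling on the hybridization controls, while the gap between the tissues, 1.11 and 1.07, was shown by 3.32% and 3.84% of probe sets. Both H2A probe sets entered through the ovule list as lower in 57-4, so a gap in this direction follows in part from that choice. The 2 may report the same transcripts.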

How the results depend on the processing

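A single array per group, and signals near the floor for CARM1A, limit these values. A change of up to 1.5 times was taken as no change, since no replicate spread exists. Of the counts of members past 2-fold, 57 of 70 stayed within that under the alternatives. The count of 2 lower in 57-4 ovules became 0 with quantile normalization, 0 with a log2 threshold of 1.5 and 0 over single-transcript probe sets. Both are H2A probe sets of the shared type, just past 2-fold. With exact accessions the count became 1, since DW232160 is found only with version suffixes dropped. It became 3 with scaling on the hybridization controls, which brought ASHH3 to -1.12. With the ovule columns exchanged it became 0, with 2 higher. The H2A ratios in ovules then turned to 1.05 and 1.03, while 1 member became higher in Pima S-1 anthers than in ovules and 0 in 57-4. The count of 0 lower in 57-4 anthers became 1 without a floor (CARM1A) and 1 with scaling on the hybridization controls (deacetylase 14). The count of 1 lower in 57-4 anthers than in 57-4 ovules became 2 without a floor. The 1 higher there became 0 with a log2 threshold of 1.5 and 0 over single-transcript probe sets. H1-III stayed past 2-fold in anthers under each alternative. Only median centring, quantile normalization and scaling on the hybridization controls could move that ratio. Scaling on the hybridization controls moved the median ratio of all probe sets by -0.48 in anthers and -0.43 in ovules. No paired analysis was possible because each group has 1 array.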
